A study of Mus musculus with 24 samples.

Results

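The comparison described here set Ocy454 cells carrying the sample label 1,25D for 8 h against Ocy454 cells given vehicle for 8 h, with 3 libraries in each group, 6 of the 24 libraries of the series. Ocy454 is an established mouse line with osteocytic features, used to study the cells embedded in bone matrix. The series crossed 1,25-dihydroxyvitamin D (1,25D), lysophosphatidic acid (LPA), both agents together and vehicle with exposures of 2 h and 8 h, and addressed how these agents act on skeletal synthesis of fibroblast growth factor 23 (FGF23). The 2 codes of the compared libraries disagree. Their sample titles carry the letter D and their library names say 1,25D, whereas their deposited tables carry the file code L. The libraries titled L carry the file code D in the same way, and the libraries with both agents and with vehicle have the same code in both places. The compared libraries are therefore called the libraries labelled 1,25D throughout, and a direction given for them belongs to the label and not to an agent. Cyp24a1 and Vdr went against this label, as given below. All groups are of the same line and no genetic change is labelled. The labels and files used here give no dose.

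1,25D is the active form of vitamin D and binds the vitamin D receptor, a nuclear receptor that activates genes such as Cyp24a1, whose product breaks 1,25D down. LPA is a lysophospholipid that binds G protein-coupled receptors on the cell surface. Through the ERK mitogen-activated protein kinase cascade, SRF and YAP, such receptors are known to switch on immediate early genes, feedback inhibitors of the cascade and genes of the actin cytoskeleton. In bone, osteocytes are the main source of FGF23, a hormone that lowers blood phosphate.

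Cyp24a1 and Vdr, the gene of the vitamin D receptor, were used to judge the labels, and both went against the label 1,25D. Cyp24a1 had 0, 1 and 0 estimated counts in the libraries labelled 1,25D, against 1, 0 and 0 in vehicle. It had 25, 48 and 29 counts in the libraries labelled LPA and 35, 28 and 24 in those given both agents. The libraries labelled 1,25D thus overlapped vehicle, and each library labelled LPA or given both agents lay above both. The ratio of summed counts to vehicle was 1.01 for the libraries labelled 1,25D, with an exact 95% interval of 0.0129 to 79.4 that covers counting error only. The same ratio was 100.2 (17.6 to 3995) for the libraries labelled LPA. Vdr, itself known to rise with vitamin D in bone cells, stood at 70.6, 74.3 and 71.9 CPM (counts scaled to library size) in the libraries labelled 1,25D, against 134, 112 and 130.1 CPM in vehicle. The groups did not overlap, and Vdr fell by 0.80 on the log2 scale (SE 0.08, edgeR adjusted p = 4.7e-07). It stood at 247, 259.8 and 256 CPM in the libraries labelled LPA and at 229, 205 and 236 CPM where both agents were given, above vehicle in each. Both genes thus went with the file codes, under which the compared libraries are L and those labelled LPA are D. No label resolved the exchange of codes. Results given under the label 1,25D should therefore not be read as a response to vitamin D.

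**Figure D1:**
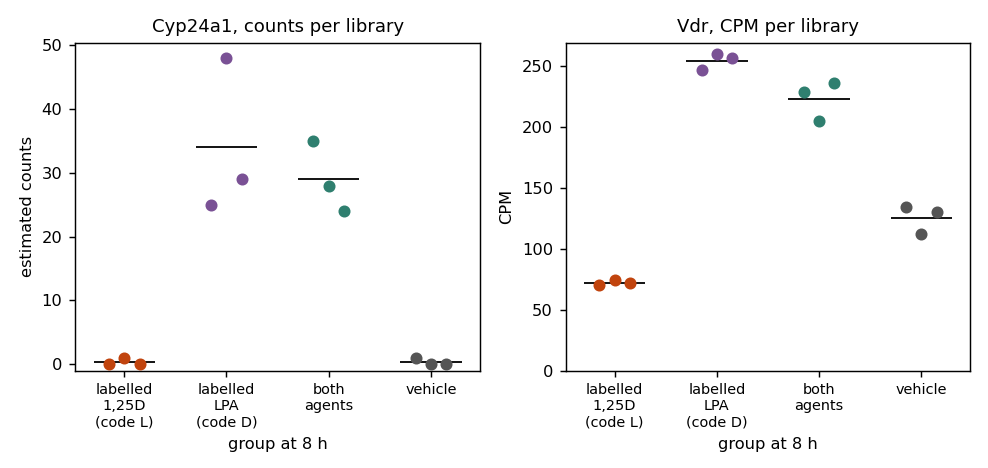
Estimated counts of Cyp24a1 (left) and CPM of Vdr (right) in each library at 8 h; points are libraries, lines are group means, and CPM are counts scaled to library size. The libraries labelled 1,25D held at most 1 Cyp24a1 count and had the lowest Vdr, between 70.6 and 74.3 CPM.

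Fgf23 itself was almost absent. It had 0, 0 and 1 counts in the libraries labelled 1,25D, against 0, 1 and 2 in vehicle, a ratio of summed counts of 0.337 (exact 95% counting interval 0.00642 to 4.2), and this depth could not show a change. Il12a, which encodes a subunit of interleukin 12, stood at 0.656, 0.639 and 0.729 CPM in the libraries labelled 1,25D and at 0.473, 0.279 and 0.699 CPM in vehicle, with overlapping groups (log2 fold change 0.47 ± 0.37 SE, adjusted p = 0.43). Lpar1, the gene of the LPA receptor 1, also overlapped between the groups, at 45.7 ± 3.39 CPM and 48.8 ± 4.58 CPM in vehicle (SD, n = 3 each; log2 fold change −0.09 ± 0.09 SE, adjusted p = 0.52).

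The 6 libraries held 32.96 to 33.75 M estimated counts each and 21898 to 22701 genes with a count. Separate cultures are not stated for the libraries of a group, and p-values therefore refer to the spread among these samples, which may be technical. Vehicle replicate 2 stood apart. Mitochondrially encoded genes took 16.9% of its counts, against 11.9 to 13.1% in the libraries labelled 1,25D and 13.6 and 10.1% in vehicle replicates 1 and 3. Pairs of libraries labelled 1,25D differed by a chi-square per degree of freedom of 7.08 to 8.83, and pairs of vehicle libraries by 27.9 to 133. Counts of called genes and list members are therefore in most cases also given without vehicle replicate 2. Of the defining osteocyte genes, Pdpn, Cd44 and Gja1 were well expressed, Dmp1 averaged 2.01 CPM in the libraries labelled 1,25D and 2.04 CPM in vehicle, Sost was at most 0.124 CPM in any of the 6, and Mepe was at 0 in all libraries labelled 1,25D. Summed marker levels of other cell types were low. They ran from 3.26 to 4.20 CPM in the libraries labelled 1,25D and 2.08 to 3.78 CPM in vehicle for 10 adipocyte genes, and from 7.30 to 10.5 CPM and 3.45 to 6.33 CPM for 11 chondrocyte genes. For 13 macrophage and blood cell genes they were 17.04 to 19.3 CPM in the libraries labelled 1,25D and 19.0 to 20.5 CPM in vehicle, with Tyrobp and Hbb-bs at 0. For 10 endothelial genes, with Cldn5 at 0, they were 4.02 to 5.01 CPM and 5.24 to 6.20 CPM in vehicle, and for 10 skeletal muscle genes, with Myod1 and Myog at 0, 4.23 to 4.66 CPM and 5.15 to 6.44 CPM in vehicle. Of all these, Sox9 rose (1.04 ± 0.23) and Lyz2 fell by 0.61 (SE 0.13). Egfl7 and Des also passed the threshold as falls, but Egfl7 (−0.54 ± 0.16) lost the call in 5 of 6 fits that left out 1 library, without vehicle replicate 2 among them (adjusted p = 0.054), and Des (−1.09 ± 0.34) in 4 of 6, without that library too (0.062). A change in the number of cells of a type cannot be told apart from a change of RNA per cell in bulk samples, and the part of these markers in the results was not tested.

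At 8 h, immediate early genes, ERK pathway genes and NF-kB targets were mostly higher in the libraries labelled 1,25D than in vehicle, with 21 of 26, 18 of 25 and 20 of 29 tested members called higher. Of 16424 genes tested, 2662 (16.2%) passed an adjusted p of 0.05 in edgeR's quasi-likelihood test. Of these, 1296 were higher (7.89% of genes tested) and 1366 lower (8.32%). Changes of at least 2-fold were more often rises, with 234 genes higher (1.42%) and 91 lower (0.554%). Without vehicle replicate 2 the test called 1517 of 17039 genes (8.90%), 729 higher (4.28%) and 788 lower (4.62%), and 681 of the 1296 and 744 of the 1366 were among them. Without vehicle replicate 3 it called 1910 of 17021 genes as higher (11.2%) and 1498 as lower (8.80%). Leaving out replicate 2 labelled 1,25D gave 1720 genes and leaving out replicate 3 gave 1649. A fit of the 6 compared libraries alone called 1287 genes, 504 higher and 783 lower. The median log2 fold change over all genes tested was 0.00. Absence of overlap between groups was required of the genes named below for the largest rises and falls, and held for 36.4% of all genes tested. Each of these named genes kept its call without vehicle replicate 2.

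**Figure D2:**
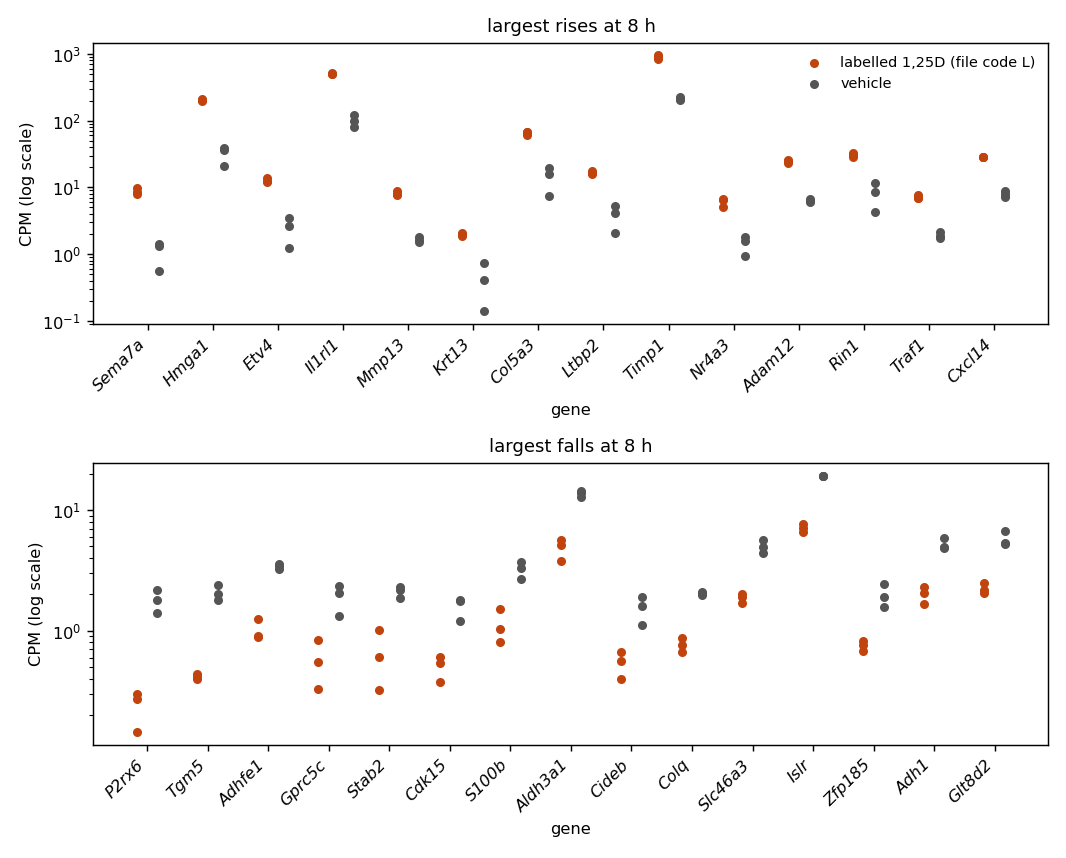
CPM on a log scale of the genes named for the largest rises (top) and the largest falls (bottom) at 8 h; each point is 1 library, the libraries labelled 1,25D to the left of vehicle for each gene. The 3 points of one group lie clear of the other because this was required of the genes shown. Levels in the libraries labelled 1,25D ran from 852 to 949 CPM for Timp1 down to 0.146 to 0.298 CPM for P2rx6.

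Several genes of the extracellular matrix and its turnover were among the largest rises. Timp1, which encodes a secreted inhibitor of matrix metalloproteases, had 949, 911 and 852 CPM in the libraries labelled 1,25D, against 211, 229.8 and 207 CPM in vehicle. It rose by 2.07 on the log2 scale (SE 0.10, adjusted p = 1.5e-11), every library labelled 1,25D lying above every vehicle library. Mmp13, which encodes collagenase 3, had 8.79, 7.7 and 8.04 CPM in the libraries labelled 1,25D and 1.8, 1.52 and 1.62 CPM in vehicle, a log2 fold change of 2.31 ± 0.20 (SE, adjusted p = 8.7e-08). On the length-scaled TPM scale the level of Timp1 was 1510.0 ± 44 in the libraries labelled 1,25D and 350.0 ± 25.1 in vehicle, and that of Mmp13 was 3.68 ± 0.24 and 0.725 ± 0.123 in vehicle (SD, n = 3 each), so the inhibitor was far more abundant per length than the collagenase in both groups. Adam12, which encodes a membrane metalloprotease and disintegrin, rose to 24.5 ± 1.26 CPM, against 6.34 ± 0.315 CPM in vehicle. Col5a3, a chain of type V collagen, had 67.1, 61.6 and 67.7 CPM in the libraries labelled 1,25D and 16.1, 7.51 and 19.4 CPM in vehicle. Its log2 fold change was 2.19 ± 0.25 (SE) with all libraries and 1.89 without vehicle replicate 2, the lowest vehicle library. Ltbp2, which encodes a latent TGF-beta binding protein, rose to 16.6 ± 1.01 CPM, against 3.79 ± 1.60 CPM in vehicle, and vehicle replicate 2 was again the lowest.

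Cell surface and cytokine signalling genes formed a second group. Sema7a, which encodes a membrane-anchored semaphorin, had the largest rise, with 8.64, 9.68 and 7.93 CPM in the libraries labelled 1,25D and 1.42, 0.559 and 1.34 CPM in vehicle (log2 fold change 2.97 ± 0.26 SE, adjusted p = 9.8e-08). Il1rl1, which encodes the interleukin 33 receptor ST2, had 514, 493 and 508 CPM in the libraries labelled 1,25D, against 97.3, 121 and 79.5 CPM in vehicle. It rose by 2.35 on the log2 scale (SE 0.12, adjusted p = 1.5e-11), with the libraries labelled 1,25D within a narrow range far above vehicle. Its transcripts were summed, so secreted and membrane forms are not separated. Cxcl14, a chemokine gene, rose to 28.6 ± 0.469 CPM, against 7.93 ± 0.718 CPM in vehicle. Traf1, which encodes an adaptor of tumour necrosis factor receptors, rose to 7.18 ± 0.52 CPM, against 1.95 ± 0.211 CPM in vehicle. Rin1, which encodes an effector of Ras, rose to 30.6 ± 1.77 CPM, against 8.13 ± 3.64 CPM in vehicle.

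Among nuclear proteins, Hmga1, which encodes an architectural chromatin protein, had 206, 198 and 209 CPM in the libraries labelled 1,25D and 36.3, 21.2 and 38.4 CPM in vehicle, a log2 fold change of 2.68 ± 0.20 (SE, adjusted p = 6.9e-09). It has near-identical copies in the genome between which reads could be split, so its level is less certain than its direction. Etv4, an ETS transcription factor gene that responds to ERK signalling, rose by 2.38 ± 0.25 and stood at 12.7 ± 0.899 CPM, against 2.43 ± 1.11 CPM in vehicle. Nr4a3, which encodes an orphan nuclear receptor of the immediate early class, rose by 2.06 ± 0.19, to 6.08 ± 0.832 CPM, against 1.45 ± 0.467 CPM in vehicle. Krt13, a keratin gene, was the lowest of the genes named for the largest rises, at 1.98 ± 0.0862 CPM in the libraries labelled 1,25D and 0.427 ± 0.300 CPM in vehicle.

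The 250 bases before the annotated start were searched in RefSeq's GRCm38.p6 annotation for 3 motifs on both strands: TGANTCA, the site of AP-1 factors such as Fosl1; TGACGTCA, the site of CREB and related factors, which shares no match with the first; and the direct repeat of AGGTCA with a spacer of 3 bases, of the kind bound by the vitamin D receptor. TGANTCA was in 11.8% of 195 windows of genes called and at least 2-fold higher, and in 3.66% of 82 windows of genes at least 2-fold lower. Of the 234 genes called and at least 2-fold higher, 149 had a window. The motif was in 6.26% of 1262 windows of all genes called higher and 4.62% of 1384 windows of genes called lower. It was in 5.04% of 14540 windows of genes tested and 6.75% of all 32851 windows. TGACGTCA was in 1.54% of windows of genes at least 2-fold higher and 2.41% of windows of genes tested. The direct repeat was in 2 of all windows and in none of the windows of genes tested. These counts are descriptions of letters, not of binding. Windows of genes named here are shown because they hold a match close to the start (Mmp13, Krt13), hold one in a cytokine gene or a feedback inhibitor (Lif, Errfi1), or hold one although the gene fell (Cdk15). The letters run 5′ to 3′ on the gene's strand, with the match in capitals. They lie at chr9:7272264-7272513 on the plus strand for Mmp13, chr11:100120578-100120827 on the minus strand for 1 of the windows of Krt13, chr11:4257318-4257567 on the plus strand for Lif, chr4:150854820-150855069 on the plus strand for Errfi1 and chr1:59256656-59256905 on the plus strand for Cdk15, each immediately upstream of a transcription start.
Mmp13: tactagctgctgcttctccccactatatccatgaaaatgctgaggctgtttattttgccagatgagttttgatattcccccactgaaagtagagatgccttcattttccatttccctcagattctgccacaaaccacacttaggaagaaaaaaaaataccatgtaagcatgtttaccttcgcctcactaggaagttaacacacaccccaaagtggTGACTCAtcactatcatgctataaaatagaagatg
Krt13: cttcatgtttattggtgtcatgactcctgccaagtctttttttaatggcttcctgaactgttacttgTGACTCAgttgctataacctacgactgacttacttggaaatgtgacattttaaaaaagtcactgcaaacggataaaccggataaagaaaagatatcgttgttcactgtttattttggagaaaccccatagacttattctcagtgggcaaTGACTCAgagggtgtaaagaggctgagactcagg
Lif: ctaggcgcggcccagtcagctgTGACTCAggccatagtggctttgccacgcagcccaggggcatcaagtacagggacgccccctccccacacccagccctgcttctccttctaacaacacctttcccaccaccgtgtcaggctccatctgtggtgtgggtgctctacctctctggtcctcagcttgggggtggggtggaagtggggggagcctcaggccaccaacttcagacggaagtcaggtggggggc
Errfi1: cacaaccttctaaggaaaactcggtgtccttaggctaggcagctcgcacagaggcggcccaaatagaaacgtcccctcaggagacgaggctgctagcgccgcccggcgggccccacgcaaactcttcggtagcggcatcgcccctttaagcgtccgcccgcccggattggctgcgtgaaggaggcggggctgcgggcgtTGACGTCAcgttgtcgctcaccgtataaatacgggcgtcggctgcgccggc
Cdk15: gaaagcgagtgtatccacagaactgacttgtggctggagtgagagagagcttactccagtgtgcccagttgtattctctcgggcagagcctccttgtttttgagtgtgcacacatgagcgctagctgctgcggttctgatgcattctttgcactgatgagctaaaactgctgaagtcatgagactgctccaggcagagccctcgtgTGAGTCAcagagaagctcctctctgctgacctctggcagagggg
The match of Mmp13 begins 35 bases before the start, those of Krt13 183 and 34 bases before it, that of Lif 228, that of Errfi1 51, which is TGACGTCA, and that of Cdk15 44. Of these 5 genes, the first 4 were higher in the libraries labelled 1,25D and Cdk15 was lower. Among genes named here whose windows are not shown, Gpr39, Hdac9 and Ltbp1, which rose, and Ifit3 and Olfm2, which fell, also held a match.

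Immediate early genes, the first transcription factor genes to respond to growth factors, were higher as a group. Of 26 tested members 21 rose and 0 fell, with a median log2 fold change of 0.82, and without vehicle replicate 2 the count was 15 rises. Fosl1, which encodes the AP-1 subunit Fra-1, had 60.3, 65 and 60.8 CPM in the libraries labelled 1,25D, against 21.8, 19.1 and 15.7 CPM in vehicle (log2 fold change 1.72 ± 0.09 SE, adjusted p = 5.1e-11). No vehicle library reached the lowest library labelled 1,25D. The other AP-1 genes Jun (1.35 ± 0.23) and Junb (1.34 ± 0.23) rose as well, as did the pluripotency and epithelial factor gene Klf4 (1.34 ± 0.23) and the proto-oncogene Myc (0.83 ± 0.17), and Nr4a1 (1.32 ± 0.16), an orphan nuclear receptor gene, and Arc (0.81 ± 0.17), which encodes a cytoskeleton-associated protein best known from neurons, rose too. All 6 were lowest in vehicle replicate 2 and kept the call without it. Egr2 (0.43 ± 0.10) and Egr3 (0.79 ± 0.24), zinc finger factor genes, were called with all libraries. Egr2 lost the call without replicate 2 labelled 1,25D (adjusted p = 0.071), and Egr3 without vehicle replicate 2 (adjusted p = 0.16) or any replicate labelled 1,25D (0.057 to 0.097).

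Genes that report and restrain ERK signalling rose in 18 of 25 tested cases, with 0 falls and a median log2 fold change of 0.71. Without vehicle replicate 2, 12 rose. Errfi1, which encodes an inhibitor of the epidermal growth factor receptor, had 163, 176 and 172 CPM in the libraries labelled 1,25D and 77.8, 77.5 and 69.9 CPM in vehicle, a log2 fold change of 1.18 ± 0.08 (SE, adjusted p = 2.4e-09). The phosphatase genes Dusp4 (1.17 ± 0.19) and Dusp6 (0.67 ± 0.08), whose products switch off MAP kinases, rose. So did Ereg (1.67 ± 0.21) and Hbegf (1.04 ± 0.12), both ligands of the epidermal growth factor receptor family, the ETS factor gene Etv5 (0.83 ± 0.08) and the G1 cyclin gene Ccnd1 (0.46 ± 0.08). The groups did not overlap for any of these genes.

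**Figure D3:**
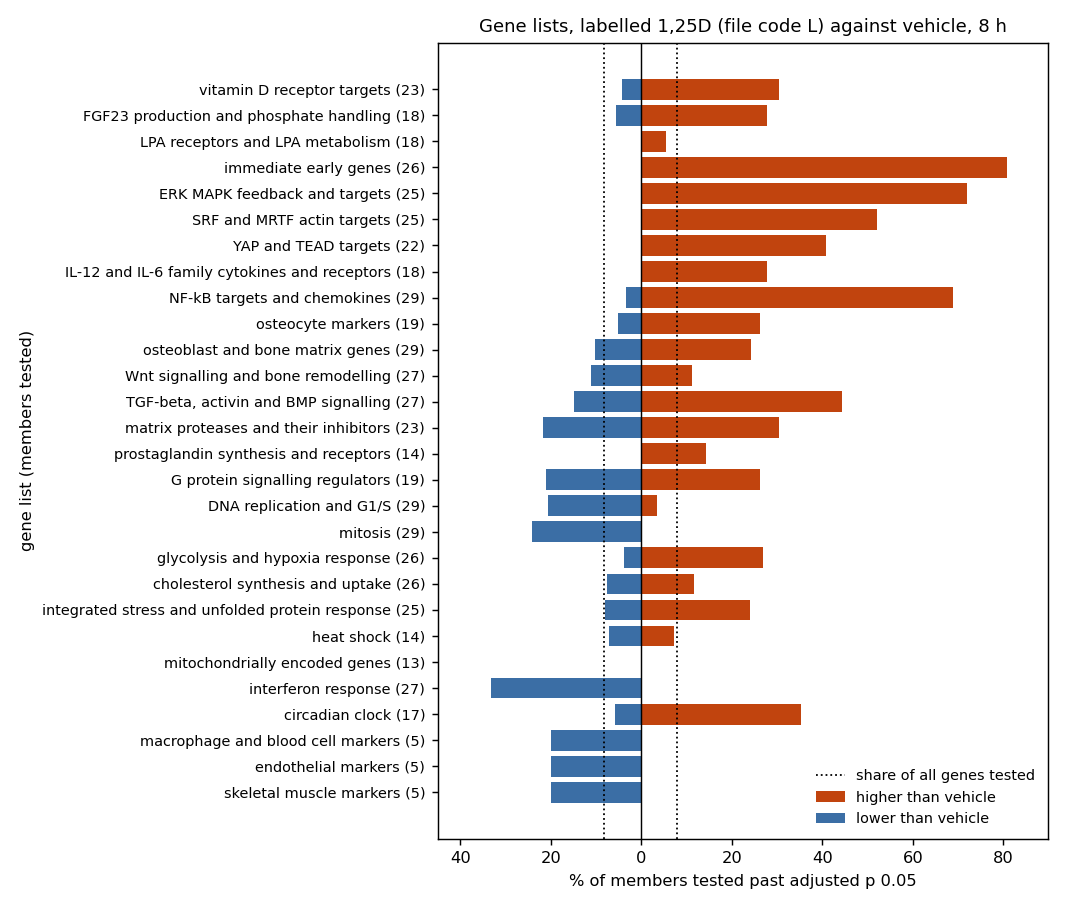
Share of tested members of each gene list that passed an adjusted p of 0.05 at 8 h, higher in the libraries labelled 1,25D to the right and lower to the left; the number of tested members is in brackets and dotted lines mark the shares of all genes tested, 7.89% higher and 8.32% lower. Immediate early genes reached 21 of 26 and ERK genes 18 of 25 to the right, and interferon response genes 9 of 27 to the left.

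Targets of SRF and MRTF, which build the actin cytoskeleton, rose in 13 of 25 cases (7 without vehicle replicate 2), with Tagln, the gene of transgelin, at 573 ± 3.21 CPM in the libraries labelled 1,25D and 288 ± 24.8 CPM in vehicle (log2 fold change 0.99 ± 0.10 SE) and the actin oxidase gene Mical2 at 0.93 ± 0.08. YAP and TEAD targets rose in 9 of 22 cases, 7 without vehicle replicate 2 and 13 without vehicle replicate 3. Among them Ccn2, the gene of connective tissue growth factor, rose by 0.65 ± 0.10. Neither list had a member that fell. Of the LPA receptor and metabolism genes 1 of 18 (5.56%) was called higher, against 7.89% of all genes tested. It was Agpat5, which encodes an acyltransferase that uses LPA (0.33 ± 0.10). Agpat5 lost the call without vehicle replicate 1 (adjusted p = 0.13), vehicle replicate 3 (0.064) or replicates 1 (0.11) or 2 (0.091) labelled 1,25D. Of 19 regulators of G protein signalling, 5 rose and 4 fell. They included Rgs3, a brake on G protein signalling (0.77 ± 0.11), and Rnd3, an atypical small GTPase (−0.51 ± 0.08). Leaving out 1 library gave 3 to 5 rises and 1 to 3 falls in that list.

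NF-kB targets and chemokine genes rose in 20 of 29 cases, 17 without vehicle replicate 2, with a median log2 fold change of 0.70. Ccl2, which encodes a chemokine that attracts monocytes, had 113, 119.9 and 107 CPM in the libraries labelled 1,25D and 44.7, 50.9 and 40.6 CPM in vehicle, a log2 fold change of 1.32 ± 0.12 (SE, adjusted p = 1e-07). Ccl7 (1.01 ± 0.11) and Ccl5 (1.41 ± 0.18), further chemokine genes, and Bcl3 (1.38 ± 0.28), which encodes a nuclear partner of NF-kB, rose. Cxcl12 was the single called fall of the list (−0.20 ± 0.07), and it kept its call in 1 of the 6 fits that left out a library, the one without vehicle replicate 3. Prostaglandin genes had 2 rises among 14 tested members, and the same number without vehicle replicate 2. Ptgs1, the gene of cyclooxygenase 1, had 63.4, 59.2 and 62.8 CPM in the libraries labelled 1,25D, against 29.7, 30.3 and 28.4 CPM in vehicle (1.07 ± 0.08), and Ptgs2, the gene of the inducible enzyme cyclooxygenase 2, rose by 0.69 ± 0.10.

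Among 18 tested cytokine and receptor genes related to IL-12 and IL-6, 5 rose and 0 fell (4 rises without vehicle replicate 2). Osmr, which encodes the oncostatin M receptor, reached 169, 167 and 177 CPM in the libraries labelled 1,25D, against 94.9, 100.4 and 90.2 CPM in vehicle, a log2 fold change of 0.85 ± 0.07 (SE, adjusted p = 7e-08). Socs3, the feedback inhibitor of these receptors, rose by 1.45 ± 0.24, and the cytokine gene Lif by 0.86 ± 0.13. Socs3 was lowest in vehicle replicate 2 and kept its call without that library, at 1.19 (adjusted p = 0.0016). Interferon response genes moved the other way, with 9 of 27 lower and 0 higher (median −0.22; 5 lower without vehicle replicate 2). Ifit3, which encodes an antiviral protein, fell by 0.90 (SE 0.12), Psmb9, an immunoproteasome subunit gene, by 0.87 (SE 0.15) and Irf7, the interferon regulatory factor gene, by 0.53 (SE 0.10). Ifit3 has a near-identical copy, so reads could be split between them.

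Bone genes moved in both directions, but the share of falls was close to that of all genes tested. Spp1, the gene of the matrix phosphoprotein osteopontin, had 764, 714 and 718 CPM in the libraries labelled 1,25D and 256, 295 and 265 CPM in vehicle, a log2 fold change of 1.43 ± 0.10 (SE, adjusted p = 2.4e-09). Of 29 osteoblast and bone matrix genes 7 rose and 3 fell (4 and 3 without vehicle replicate 2). With all libraries these were 24.1% and 10.3% of the list, against 7.89% and 8.32% of all genes tested. Of the 3 falls with all libraries only Omd kept its call without vehicle replicate 2, so the 3 falls in brackets are in part other genes. The crosslinking enzyme gene Lox rose to 454 ± 14.9 CPM in the libraries labelled 1,25D, against 164 ± 31.8 CPM in vehicle, and Tnc, which encodes the matrix glycoprotein tenascin C, rose by 1.71 ± 0.09. Omd, the gene of the keratan sulphate proteoglycan osteomodulin, had 22.9, 23.2 and 23.2 CPM in the libraries labelled 1,25D, against 50.6, 58.2 and 45.5 CPM in vehicle (−1.15 ± 0.12). Col1a1, the main collagen gene of bone, had 4538, 4591 and 4305 CPM in the libraries labelled 1,25D and 3750.0, 1650.0 and 4054 CPM in vehicle, and did not pass the test (0.51 ± 0.25, adjusted p = 0.17). Its vehicle replicate 2 was far below the other 5 libraries. Col1a2, the gene of its partner chain, was also lowest there, at 852 CPM against 1673 CPM or more in the other 5, and did not pass the test (0.46 ± 0.22, adjusted p = 0.17). Sparc (−0.26 ± 0.08) was a called fall that lost its call in 5 of 6 fits without 1 library (adjusted p 0.051 to 0.16), all but the one without vehicle replicate 3.

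Of 19 osteocyte markers 5 rose and 1 fell, and 3 to 4 rose when 1 library was left out. Tnfrsf11b, which encodes osteoprotegerin, the decoy that blocks osteoclast formation, rose to 7.02 ± 0.46 CPM in the libraries labelled 1,25D, against 2.02 ± 0.236 CPM in vehicle (log2 fold change 1.80 ± 0.28 SE, adjusted p = 0.00015). The membrane glycoprotein genes Pdpn (0.41 ± 0.08) and Cd44 (0.39 ± 0.07) rose by less. The 1 fall was of Fbln7 (−0.62 ± 0.07, adjusted p = 2.9e-06). It averaged 68.7 CPM in the libraries labelled 1,25D and 105.7 CPM in vehicle. Its groups did not overlap, and it kept the call without any 1 vehicle library. Wnt and remodelling genes had 3 rises and 3 falls among 27 tested members. The counts were 3 and 1 without vehicle replicate 2 and 8 and 4 without vehicle replicate 3. With all libraries each direction took 11.1%, near the shares of all genes tested (7.89% higher and 8.32% lower). Wnt11, a ligand gene, rose by 1.59 ± 0.33 at a level of 0.925 ± 0.21 CPM, against 0.304 ± 0.0713 CPM in vehicle, the Wnt effector gene Tcf7 rose by 0.86 ± 0.20, and Rspo3, which encodes a Wnt agonist, had −0.57 ± 0.14 and lost its call without vehicle replicate 2 (adjusted p = 0.055).

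The vitamin D receptor target list had 7 rises and 1 fall among 23 tested members (6 and 1 without vehicle replicate 2). The fall was Vdr. Besides Spp1 the rises included Enpp1, which makes pyrophosphate (1.08 ± 0.17). Enpp1 had 12.5, 13.3 and 14.2 CPM in the libraries labelled 1,25D and 7.51, 7.04 and 4.39 CPM in vehicle. The cell cycle inhibitor gene Cdkn1a (0.77 ± 0.10) and Cebpb (1.29 ± 0.30), a transcription factor gene of inflammation, were also among the rises. Cebpb was lowest in vehicle replicate 2 and kept its call without that library, at 0.95 (adjusted p = 0.027). Of 18 genes of FGF23 production and phosphate handling 5 rose and 1 fell, 3 and 2 without vehicle replicate 2. Fam20c, which encodes a kinase of secreted proteins including FGF23, rose by 1.06 ± 0.26, and Nr4a2, an orphan nuclear receptor gene, by 1.06 ± 0.20. Both were lowest in vehicle replicate 2. Without it they kept their calls at 0.75 (adjusted p = 0.034) for Fam20c and 0.84 (0.0057) for Nr4a2. Phex, whose loss raises FGF23, had 0.805, 0.761 and 1.40 CPM in the libraries labelled 1,25D and 0.502, 0.310 and 0.363 CPM in vehicle (1.33 ± 0.43, adjusted p = 0.041), and lost its call in each of the 6 fits without 1 library. The receptor gene Fgfr1 (0.74 ± 0.23) lost it without vehicle replicate 2 (adjusted p = 0.17) or replicates 1 (0.075) or 3 (0.1) labelled 1,25D. Fgfr2, a related receptor gene, fell by 0.68 (SE 0.08).

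Genes of TGF-beta, activin and BMP signalling moved in both directions. Of 27 tested members 12 rose and 4 fell (8 and 4 without vehicle replicate 2). Ltbp1, which encodes a protein that stores latent TGF-beta in the matrix, had 284, 282 and 280.5 CPM in the libraries labelled 1,25D, against 173, 151 and 180.3 CPM in vehicle, a log2 fold change of 0.75 ± 0.07 (SE, adjusted p = 1.2e-07). The ligand genes differed in sign. Tgfb1 had 0.74 ± 0.22, a call lost without vehicle replicate 2 (adjusted p = 0.15) or any replicate labelled 1,25D (0.052 to 0.095), and Tgfb3 fell by 0.38 (SE 0.07). The BMP target genes Id1, Id2 and Id3, which encode inhibitors of basic helix-loop-helix factors, fell together by 0.81 (SE 0.16), 0.82 (SE 0.08) and 0.85 (SE 0.09). Id3 stood at 75.6, 76.5 and 70.7 CPM in the libraries labelled 1,25D and at 132, 137 and 133 CPM in vehicle, with no overlap. Matrix proteases and inhibitors, beyond Mmp13 and Timp1, included falls of the gelatinase gene Mmp2 (−0.33 ± 0.07) and the aggrecanase-family gene Adamts9 (−1.13 ± 0.25), in a list with 7 rises and 5 falls among 23 (7 and 4 without vehicle replicate 2).

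Mitosis genes had 7 falls and 0 rises among 29 tested members (4 falls without vehicle replicate 2, 11 without vehicle replicate 3), with the cyclin gene Ccnb2 at −0.50 ± 0.08 and the mitotic kinase gene Plk1 at −0.29 ± 0.07. DNA replication genes had 6 falls (3 without vehicle replicate 2) and 1 rise among 29, the rise being Ccnd1, and 5 rises without vehicle replicate 3. Among the falls were the helicase subunit gene Mcm2 (−0.33 ± 0.07) and the DNA ligase gene Lig1 (−0.41 ± 0.07). Glycolysis and hypoxia genes rose in 7 of 26 cases, 5 without vehicle replicate 2 and 3 to 6 without any 1 library. The glucose transporter gene Slc2a1 rose by 0.46 ± 0.11 and Vegfa, which encodes an angiogenic growth factor, by 0.99 ± 0.18, whereas Pfkm, a phosphofructokinase gene, fell by 0.67 (SE 0.08). Eno1, a glycolytic enzyme gene with a near-identical copy, was 0.41 ± 0.10 higher. Adm, which encodes adrenomedullin, had 1.05 ± 0.28 and lost its call without vehicle replicate 2 (adjusted p = 0.054) or replicates 2 (0.08) or 3 (0.079) labelled 1,25D. Circadian clock genes had 6 rises and 1 fall among 17 (5 and 2 without vehicle replicate 2), with rises of the repressor genes Bhlhe40 (0.68 ± 0.07) and Nfil3 (0.52 ± 0.08), a fall of the activator gene Tef (−0.80 ± 0.10), and Cry1 at 0.95 ± 0.24, a call lost without vehicle replicate 2 (adjusted p = 0.063). Of the integrated stress and unfolded protein response 6 rose and 2 fell among 25, with the central factor gene Atf4 at 0.36 ± 0.07, and 4 rose and 0 fell without vehicle replicate 2. Cholesterol genes had 3 rises and 2 falls among 26 (2 and 1 without vehicle replicate 2). Heat shock genes had 1 and 1 among 14 (0 and 1), and mitochondrially encoded genes 0 and 0 among 13 (0 and 0). The shares were 11.5% higher and 7.69% lower for cholesterol genes and 7.14% each way for heat shock genes. Those of all genes tested were 7.89% and 8.32%. In all, the lists held 154 distinct members that rose and 55 that fell among 563 tested, 115 and 35 without vehicle replicate 2.

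The largest falls were of genes at low levels. P2rx6, which encodes a subunit of ATP-gated ion channels, had 0.298, 0.274 and 0.146 CPM in the libraries labelled 1,25D and 2.19, 1.8 and 1.4 CPM in vehicle, a log2 fold change of −2.89 ± 0.38 (SE, adjusted p = 2.3e-05). Tgm5, a transglutaminase gene, had 0.417, 0.396 and 0.437 CPM in the libraries labelled 1,25D and 2.01, 1.8 and 2.38 CPM in vehicle (−2.30 ± 0.30). Vehicle was clear of the libraries labelled 1,25D in both. Alcohol and aldehyde handling enzymes were among the 15: Adhfe1 (−1.76 ± 0.20), an alcohol dehydrogenase that contains iron, Adh1 (−1.38 ± 0.16), a classical alcohol dehydrogenase, and Aldh3a1 (−1.50 ± 0.14), an aldehyde dehydrogenase. Aldh3a1 had 5.63, 5.11 and 3.82 CPM in the libraries labelled 1,25D, against 13.9, 14.4 and 12.8 CPM in vehicle. Islr, which encodes the surface protein meflin of mesenchymal cells, was the most tightly measured, with 6.59, 7.15 and 7.64 CPM in the libraries labelled 1,25D against 19.0 to 19.2 CPM in vehicle (−1.42 ± 0.09, adjusted p = 1.9e-09). The others were the orphan receptor gene Gprc5c (−1.73), the scavenger receptor gene Stab2 (−1.70), the kinase gene Cdk15 (−1.65), the calcium-binding protein gene S100b (−1.53), the lipid droplet gene Cideb (−1.50), Colq (−1.42), which encodes the collagen tail of acetylcholinesterase, the lysosomal transporter gene Slc46a3 (−1.42), Zfp185 (−1.38) and Glt8d2 (−1.37).

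The effect at 8 h was set against the effect of the same label at 2 h, which shares no library with it. The difference of the 2 effects passed the threshold for 685 of 16424 genes (4.17%), 219 with a higher effect at 8 h (1.33%) and 466 with a lower one (2.84%). Leaving out vehicle replicate 1 at 2 h gave 449 genes. Of the 1296 genes higher at 8 h, 497 were also higher at 2 h, 38.35% of the 8 h calls and 42.84% of the 1160 calls at 2 h (7.06% of genes tested). Of the 1366 genes lower at 8 h, 302 were also lower at 2 h, 22.11% of them and 26.84% of the 1125 calls at 2 h (6.85% of genes tested; 13.9% were called in either direction). Many immediate early genes had the larger effect at 2 h, with 15 of 26 lower at 8 h than at 2 h and 0 higher. Egr2 rose by 3.0 at 2 h and by 0.43 at 8 h (difference −2.56 ± 0.14 SE, adjusted p = 6.9e-10). Egr3 had −2.73 ± 0.33, Arc −2.15 ± 0.24 and Ptgs2 −2.11 ± 0.14 as this difference. The ERK list split, with 11 of 25 lower at 8 h, among them Errfi1 (−1.72 ± 0.11) and Dusp6 (−1.60 ± 0.11), and 3 higher, among them Etv4 (0.28 at 2 h and 2.38 at 8 h, difference 2.11 ± 0.35) and Etv5 (0.73 ± 0.11). Genes of the matrix differed in sign. Of the matrix protease and inhibitor list 2 of 23 had a higher effect at 8 h than at 2 h, Timp1 and Mmp13 (a call that Mmp13 lost in 11 of 12 fits without 1 library), and 6 a lower one, whereas of the osteoblast and bone matrix list 4 of 29 had a higher and 1 a lower one. Col5a3 had a difference of 1.73 ± 0.34, Adam12 of 1.66 ± 0.20, Timp1 of 1.07 ± 0.14 and Spp1 of 0.85 ± 0.13. Sema7a was higher at both times (2.65 at 2 h, 2.97 at 8 h) and its difference did not pass the test (0.32 ± 0.35, adjusted p = 0.69). The genes with the largest higher differences were Tspan11 (2.47 ± 0.47), a tetraspanin gene, and Rnf150 (2.42 ± 0.45). The largest lower differences beside those of immediate early genes were P2rx6 (−2.79 ± 0.50), with −0.10 at 2 h, Tgm5 (−2.21 ± 0.41), with −0.09 at 2 h, and Reps2 (−2.38 ± 0.38), which rose at 2 h (1.01, adjusted p = 0.011).

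**Figure D4:**
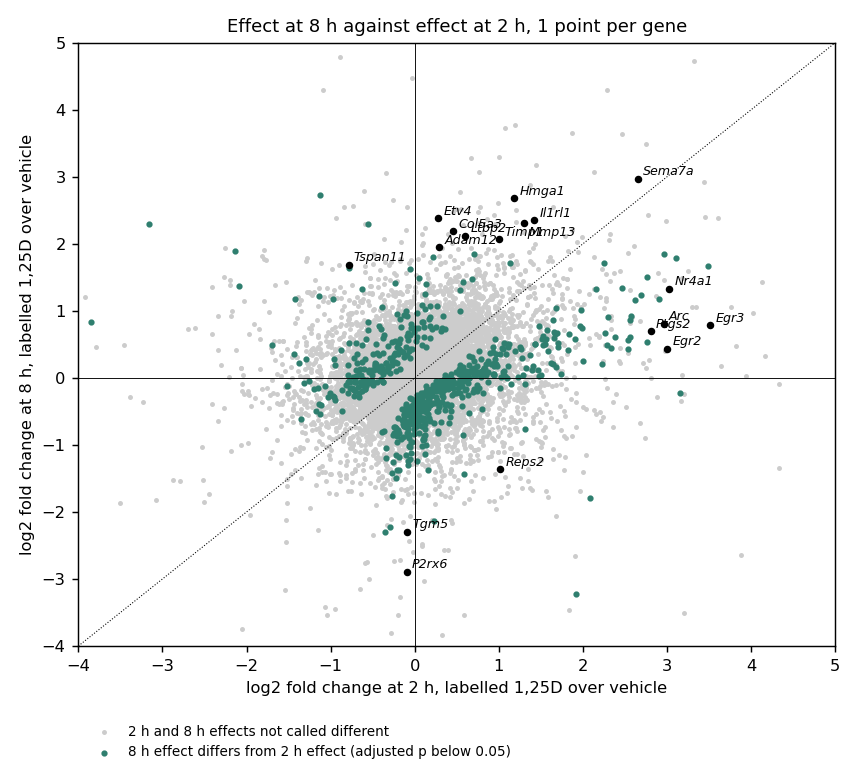
Log2 fold change of the libraries labelled 1,25D over vehicle at 8 h against the same at 2 h, 1 point per gene tested, green where the 2 effects differ at an adjusted p of 0.05; the dotted line marks equal effects and 54 genes lie outside the axes. Egr2, Egr3, Arc and Ptgs2 lie far below the line, and Etv4, Col5a3, Adam12 and Tspan11 above it.

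The libraries labelled 1,25D were also set directly against those labelled LPA at 8 h, and 2886 of 16424 genes differed (17.6%), 1358 higher (8.27%) and 1528 lower (9.30%). Tnfrsf11b had 7, 6.57 and 7.49 CPM in the libraries labelled 1,25D and was 3.50 ± 0.32 higher on the log2 scale than in those labelled LPA (adjusted p = 3.8e-08). Il1rl1 was higher by 3.41, the orphan receptor gene Gpr39 by 2.90, the histone deacetylase gene Hdac9 by 2.91, the tubulin-modifying enzyme gene Ttll11 by 2.93 and Tspan11 by 2.81. Lower were Elfn1 (−4.86), Olfm2 (−4.0), the integrin gene Itga8 (−3.39), the monooxygenase gene Fmo1 (−3.03), the myosin light chain kinase gene Mylk3 (−2.81) and the calcium-binding protein gene Cib2 (−2.73). Vdr had −1.81 ± 0.08. Against vehicle, which these comparisons share, Elfn1 had 1.78 in the libraries labelled 1,25D, a call lost without vehicle replicate 1 (adjusted p = 0.063), vehicle replicate 2 (0.091) or replicate 3 labelled 1,25D (0.13). For several bone genes the fold change over vehicle was positive under each label and largest with both agents given. Mmp13 had log2 fold changes over vehicle of 2.31 under the label 1,25D, 3.42 under the label LPA and 5.64 where both agents were given, Spp1 of 1.43, 2.58 and 3.83, and Enpp1 of 1.08, 2.79 and 3.54, in that order of groups. Timp1 had 2.07, −0.22 and 2.01, and Il1rl1 2.35, −1.06 and 1.88. Tnfrsf11b had 1.80, −1.70 and −0.20 in the same order.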

How the data were processed

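RNA-seq of 24 libraries, 3 in each of 8 groups, gave 1 table per library. The authors deposited estimated counts and TPM per transcript, per the file headers. The genome build was mm39, per the submitters' processing notes, and no source used here names the quantifier. Estimated counts were summed per gene through GENCODE transcript identifiers, which matched 135078 of 139145 transcripts and 99.4% or more of counts in each library, and rounded. Groups follow the sample titles. All 24 libraries entered 1 edgeR (4.0.16, R 4.3.3) quasi-likelihood fit with TMM scaling, filterByExpr at a minimum count of 10, 16424 genes and 16 residual degrees of freedom. P-values were adjusted by Benjamini-Hochberg over all genes, with a threshold of 0.05, and the fit was tested on simulated data. Fold changes are log2, and the SE comes from the F statistic. CPM use scaled library sizes, and TPM served to compare levels between genes. Intervals of count ratios are exact at 95% and cover counting error only. DESeq2 (1.42.0) was an alternative. Python was 3.11.15.

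Named genes are Cyp24a1, Vdr, Fgf23, Il12a and Lpar1, then the 15 largest called rises and 15 largest falls with non-overlapping libraries and a mean of at least 1 CPM, up to 3 each way by p from each gene list, and the 6 largest each way in the other comparisons. The text names only a part of the genes this rule selects, and 1 of the largest rises is not reported here. Other list members named (such as Jun, Junb, Klf4, Myc, Dusp4, Dusp6, Ereg, Hbegf, Ccl5, Bcl3, Cebpb, Phex, Fgfr1, Tgfb1, Sparc, Id1, Id2, Id3, Col1a1 and Col1a2) were chosen after their values were seen. The members and lists were chosen with earlier results of these data known, and some genes are in several lists. Promoter windows are 250 bases before the start.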

Additional observations from a re-analysis of the deposited data

Results flagged for a closer look

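Each gene below had an effect of the label 1,25D at 8 h that differed from its effect at 2 h, by the test of the difference itself in edgeR at an adjusted p of 0.05, as did 4.17% of all genes tested. Values are the 8 h effect minus the 2 h effect on the log2 scale, each from 3 libraries per group. Some calls rest on single libraries: of 12 fits that each left out 1 library, the call was lost in 11 for Mmp13 and Zfp185, 10 for Junb, 9 for Vdr and Rnd3, 7 for Plk1, 5 for Olfm2, 4 for Hbegf and Ttll11, 3 for Enpp1, 2 for Fosl1 and 1 for Ltbp2, at adjusted p between 0.05 and 0.17.

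Higher at 8 h than at 2 h were Tspan11 (2.47), Rnf150 (2.42), Etv4 (2.11), Ppp1r3d (1.95), Col5a3 (1.73), Ttll11 (1.68), Adam12 (1.66), Ltbp2 (1.52), Hmga1 (1.49), Cxcl14 (1.15), Timp1 (1.07), Mmp13 (1.01), Enpp1 (0.99), Il1rl1 (0.93), Spp1 (0.85), Ptgs1 (0.80), Lox (0.79), Etv5 (0.73), Tnc (0.58), Ccnd1 (0.56), Ltbp1 (0.43) and Plk1 (0.37).

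Lower at 8 h than at 2 h were P2rx6 (−2.79), Egr3 (−2.73), Egr2 (−2.56), Reps2 (−2.38), Tgm5 (−2.21), Arc (−2.15), Ptgs2 (−2.11), Olfm2 (−1.94), Ereg (−1.81), Errfi1 (−1.72), Nr4a1 (−1.70), Lif (−1.69), Dusp6 (−1.60), Zfp185 (−1.53), Adhfe1 (−1.49), Dusp4 (−1.46), Aldh3a1 (−1.28), Nfil3 (−1.19), Ccn2 (−1.18), Glt8d2 (−1.18), Adh1 (−1.16), Islr (−1.15), Junb (−1.13), Omd (−1.05), Psmb9 (−0.98), Bhlhe40 (−0.98), Fmo1 (−0.98), Ccl7 (−0.97), Fgfr2 (−0.91), Ccl2 (−0.84), Rgs3 (−0.70), Hbegf (−0.65), Tgfb3 (−0.59), Cib2 (−0.58), Cd44 (−0.54), Fosl1 (−0.53), Rnd3 (−0.46) and Vdr (−0.42).

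The sign of the difference does not give the direction of either effect. Omd and Islr, for example, fell more at 8 h, whereas Errfi1 and Nfil3 rose less.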

How the results depend on the processing

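Every named gene that passed the threshold kept its direction under every alternative run. In a fit of the compared libraries alone, 1287 genes were called at 8 h, 504 higher and 783 lower, with 86 list members higher. In that fit Egr2, Egr3, Fam20c, Vegfa, Sox9, Tcf7, Rspo3, Elfn1, Agpat5, Cxcl12, Myc, Bcl3, Adm, Cry1, Cebpb, Phex, Fgfr1, Tgfb1, Sparc, Egfl7 and Des lost their calls, at adjusted p between 0.052 (Vegfa) and 0.2 (Egr3). Without a filter on low counts, 2127 of 3184 genes called were higher, and the time difference had 1046 genes, 621 higher. DESeq2 gave 333 genes higher in the time difference. The cause of these shifts was not tested.

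Same-numbered libraries of the compared groups did not deviate together (correlations −0.038, 0.015 and 0.027), so the numbers were not treated as pairs. With the replicate block in the fit of all groups, 2598 genes were called, 1308 higher and 1290 lower. With the replicate block and only the compared groups, an alternative chosen after seeing the data, 88 were called, 63 higher and 25 lower, with 21 list members higher and 5 lower, and 89 of the named genes lost their calls.

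Leaving out 1 library gave 1517 (vehicle replicate 2) to 3408 (vehicle replicate 3) genes at 8 h, 729 to 1910 higher and 788 to 1498 lower, with 112 to 181 list members higher and 35 to 61 lower. Vdr ranged from −0.87 to −0.75. The time difference gave 449 to 798 genes, 138 to 265 higher and 311 to 533 lower. The comparison with the libraries labelled LPA gave 2066 to 2630 genes, 987 to 1455 higher and 1079 to 1220 lower. Depth limits what can be said of Fgf23 and Cyp24a1, where 3 counts correspond to 0.0838 to 0.0931 CPM.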
